A study of Rattus norvegicus with 4 samples.

Results

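The microRNA content of extracellular vesicles (EVs) was compared between RMT1, labelled a breast cancer cell line of the rat, and PC12, labelled a catecholamine cell line of the rat. Vesicles are membrane particles that cells release into their medium. PC12 was derived from a pheochromocytoma of the rat adrenal gland. The comparison used the deposited table that scales all 4 libraries together, which holds 2 RMT1 EV libraries and 2 PC12 libraries, EVu and EVd, with 1 of each. What u and d stand for is not stated, and the labels give no treatment, genotype or time for any library, and the RMT1 libraries are not stated to be separate cultures. Members were the names whose linear value averaged at least 10 over the 4 libraries. That rule kept 278 of 762 names, of which 440 had a count in any library. The let-7 family with miR-98 made up 15 of the 278, and the other 263 are described here as shares of the counts that remain once let-7 is set aside.

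MicroRNAs are short RNAs that guide Argonaute proteins to messenger RNAs, mostly by pairing through bases 2 to 8 from the 5′ end, the seed. Names with the same seed can bind many of the same targets, whatever hairpin they come from. Cells differ in the microRNAs they make according to lineage, and vesicles carry a sample of them that need not mirror the cell in proportion. Vesicle libraries of bulk medium do not tell how many vesicles were collected or how much RNA each held, so every value below is a share or a scaled level.

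The table recovered to whole counts that totalled 799224 in RMT1 EV 1, 716940 in RMT1 EV 2, 436840 in EVu and 338233 in EVd. Once let-7 was removed, 245577, 222930, 336365 and 265102 counts were left in the same order, and the 263 names held 99.9% to 100% of them. A count of 0 allows up to 3 counts, or 0.000892% to 0.00135% of a library on this scale, and every interval or floor given covers the error of counting alone. The PC12 libraries also appear in a second deposited table as raw counts, and the counts differ between tables. It lists 248 of the 263 names, and 176 of them lay within 2-fold of the first table in both libraries. The second table has no RMT1 libraries, so low RMT1 counts have no such check. Per library, 219, 212, 251 and 244 of the 263 names had a count above 0.

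The mature sequences behind the main results are printed first, from RefSeq on the rat build GRCr8, written 5′ to 3′ with the seed in capitals. miR-31a-5p, whose hairpin lies on the minus strand with the mature arm at chr5:108714906-108714927, led RMT1 EV, and miR-205, miR-200c-3p and miR-466c-5p were among the names that RMT1 EV held and PC12 EV almost lacked. miR-375-3p, miR-152-3p and miR-9a-5p had 0 counts in RMT1 EV.
miR-31a-5p: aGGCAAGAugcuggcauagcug
miR-205: uCCUUCAUuccaccggagucugu
miR-200c-3p: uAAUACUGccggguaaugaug
miR-466c-5p: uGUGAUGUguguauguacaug
miR-375-3p: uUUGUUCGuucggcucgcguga
miR-152-3p: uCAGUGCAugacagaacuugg
miR-9a-5p: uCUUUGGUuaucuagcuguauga

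A second set shows names that share a seed and were split differently between the lines. miR-16-5p at chr2:155555343-155555364 on the plus strand and miR-322-5p at chrX:137726198-137726219 on the minus strand share AGCAGCA. miR-27a-3p and miR-27b-3p share UCACAGU and differ at 1 base, C19U, counted from 1 at the 5′ end with the base of miR-27a-3p first. miR-29a-3p and miR-29c-3p share AGCACCA and differ at C10U, counted the same way with miR-29a-3p first.
miR-16-5p: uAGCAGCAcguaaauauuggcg
miR-322-5p: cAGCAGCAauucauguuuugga
miR-27a-3p: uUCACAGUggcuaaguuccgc
miR-27b-3p: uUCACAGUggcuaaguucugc
miR-29a-3p: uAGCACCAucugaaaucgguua
miR-29c-3p: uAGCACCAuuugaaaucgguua

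Without let-7, the RMT1 cargo was concentrated in fewer names than the PC12 cargo. In both RMT1 libraries 4 names made up 50% of the counts, against 9 in EVu and 8 in EVd. Reaching 90% took 31 and 30 names in RMT1 EV and 44 in each PC12 library. The 8 leading names of each library held 62.9% and 63.3% in RMT1 EV, 49.3% in EVu and 51.0% in EVd. Of the 8 leading names of each line, 3 were common to both lines, namely miR-16-5p, miR-191a-5p and miR-93-5p, and of the 30 leading names 15 were common.

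miR-31a-5p, a microRNA studied for its part in breast cancer spread, held 20.1% of RMT1 EV 1 and 21.1% of RMT1 EV 2 (20.6% ± 0.699, SD, n = 2), from 49309 and 46967 counts. PC12 had only 3 counts, all of them in EVu, so the lines were far apart and did not overlap. The ratio of pooled shares was 41200 (95% counting interval 14097 to 199784). In the second table EVu and EVd held 34 and 42 counts of it, or 0.00874% and 0.0140%. Those shares are above the upper counting limits of 0.00261% and 0.00139% in the first table. A ratio by the second table's counts lies below the interval given, which covers counting error alone. The size of the ratio thus depends on the table and is known only roughly.

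miR-16-5p, a widely expressed microRNA that slows the cell cycle in many cell types, came next in RMT1 EV with 16.7% and 16%, and led PC12 with 18.5% of EVu and 11.8% of EVd. RMT1 lay between the PC12 libraries. Its log2 difference in the authors' scaling, taken as RMT1 EV less the average of both PC12 libraries, was 0.31 ± 0.08 (SE, limma adjusted p = 0.10), which did not pass the threshold of 0.05. Its sign was opposite, at -1.18, when libraries were scaled by their totals with let-7 included. With miR-31a-5p also set aside, miR-16-5p held 20.9% and 20.2% of RMT1 EV, both above EVu.

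miR-191a-5p, a broadly expressed name, held 7.59% and 7.92% of RMT1 EV, 5.09% of EVu and 5.44% of EVd, so both RMT1 libraries were above both PC12 libraries. Its log2 difference of 0.72 was not called (limma adjusted p = 0.0767) and turned to -0.77 by library totals. miR-93-5p, of the miR-106b cluster, which promotes entry into the cell cycle, held 6.49% and 6.52% of RMT1 EV, 5.02% of EVu and 2.97% of EVd. It was higher in RMT1 EV by 0.92 ± 0.11 on the log2 scale (SE, limma adjusted p = 0.0446), and lower, at -0.58, by library totals. miR-24-3p, which restrains proliferation in differentiating human blood cells, held 3.18% and 3.39% of RMT1 EV against 0.665% of EVu and 0.960% of EVd, and was higher by 2.20 ± 0.16 (adjusted p = 0.0274).

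miR-26a-5p and miR-26b-5p, which share the seed UCAAGUA and repress the Polycomb enzyme Ezh2 in several cell types, were both higher in RMT1 EV. miR-26a-5p held 2.38% and 2.12% of RMT1 EV against 0.846% of EVu and 0.753% of EVd (log2 difference 1.66 ± 0.03, SE, limma adjusted p = 0.00792). miR-26b-5p held 3.31% and 2.90% against 2.13% and 1.65%, a log2 difference of 0.89 ± 0.03 (adjusted p = 0.0138) that was negative by library totals. miR-30d-5p, a name of the miR-30 family, held 3.15% and 3.32% against 2.50% and 1.48%, and was not called (adjusted p = 0.0622), with a log2 difference of 0.91 that turned to -0.58 by library totals. Among the 8 leading names of RMT1 EV, miR-31a-5p was thus the only one that PC12 nearly lacked in this table.

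The leading PC12 names beyond these were lower in RMT1 EV to very different degrees. miR-125b-5p, abundant in neurons and counterpart of the worm timing gene lin-4, held 4.76% of EVu and 6.86% of EVd against 1.97% and 2.24% of RMT1 EV. miR-29a-3p, which represses collagen messenger RNAs, held 4.64% and 6.52% against 1.96% and 2.24%. For both, all RMT1 values were below all PC12 values, and neither was called by limma (adjusted p = 0.0623 and 0.0660) while edgeR called both lower. miR-125a-5p, which shares its seed with miR-125b-5p, held 3.53% of EVu and 2.89% of EVd against 0.341% and 0.399%, and was lower by -2.95 ± 0.23 (limma adjusted p = 0.0296).

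miR-27b-3p, a regulator of fat cell and muscle differentiation, held 4.04% of EVu and 5.39% of EVd and only 0.0366% and 0.0332% of RMT1 EV. RMT1 EV had 90 and 74 counts of it, enough to measure, and the log2 difference was -6.90 ± 0.04 (SE, limma adjusted p = 0.00217). miR-322-5p, known as miR-424 in humans, held 1.53% of EVu and 8.69% of EVd against 0.296% and 0.318% of RMT1 EV, with a log2 difference of -3.40 ± 0.17 (adjusted p = 0.0174). EVd was far above EVu for this name, and both stood above RMT1 EV.

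**Figure D1:**
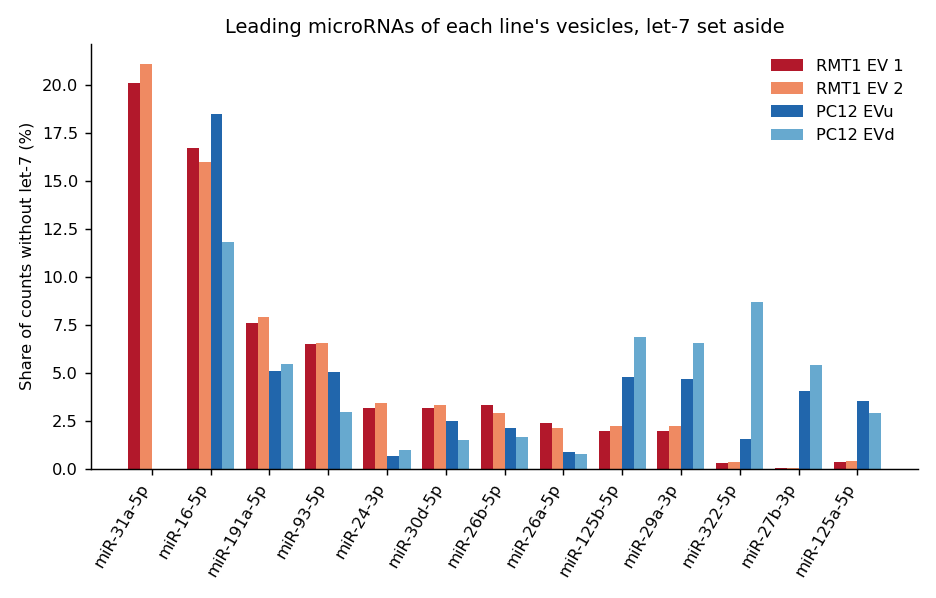
Share of the counts that are not let-7 or miR-98 (percent, linear axis from 0) in each of the 4 libraries for the leading names of either line. miR-31a-5p stands at 20.1% and 21.1% in RMT1 EV with no visible bar in PC12, while miR-16-5p is high in all 4 libraries.

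Summed by seed, the leading group was nearly level between EVu and EVd where its single names were not. In other groups the lines differed in which name carried the seed. Of the 263 names 239 matched 1 RefSeq mature sequence, and they held 92.3% of the counts without let-7 in each RMT1 library, 94.7% of EVu and 95.8% of EVd. They carried 194 distinct seeds, 31 of them borne by more than 1 name. The seed AGCAGCA of the miR-15 and miR-16 family held 17.4% and 16.6% of RMT1 EV, 20.3% of EVu and 20.7% of EVd. Both RMT1 libraries were below both PC12 libraries, which were nearly level even though miR-16-5p itself differed between them. Within that seed, miR-16-5p made up 96.2% and 96.0% in RMT1 EV, 91.0% in EVu and 57.0% in EVd, and miR-322-5p 1.70%, 1.92%, 7.52% and 42.1%.

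In other seeds the lines drew on different names. The seed UCACAGU of miR-27 held 0.363% and 0.362% of RMT1 EV, 4.27% of EVu and 5.83% of EVd. miR-27a-3p made up 89.9% and 90.8% of that seed in RMT1 EV against 5.33% in EVu and 7.50% in EVd, so the pair was inverted between lines. As a share of all counts without let-7, miR-27a-3p was similar in all libraries, with 0.327% and 0.329% in RMT1 EV, 0.227% in EVu and 0.437% in EVd, and the difference between lines came from miR-27b-3p. Both mature RNAs differ at 1 base, and how the authors' counting assigned reads between such names is not given in the sources used here.

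The miR-29 seed AGCACCA held 2.14% and 2.40% of RMT1 EV, 8.63% of EVu and 11.7% of EVd. miR-29c-3p, from a hairpin at chr13:109099412-109099433 on the plus strand that is separate from that of miR-29a-3p, made up 0.552% and 0.430% of this seed in RMT1 EV, against 33.0% in EVu and 29% in EVd. Its counts were 29 and 23 in RMT1 EV against 9573 in EVu and 8988 in EVd, a log2 difference of -7.97 ± 0.04 (SE, limma adjusted p = 0.00169). The seed CCCUGAG of miR-125 and miR-351 held 3.61% and 3.85% of RMT1 EV, 8.76% of EVu and 12% of EVd. miR-125b-5p made up 54.5% and 58.3% of it in RMT1 EV, 54.4% in EVu and 57.2% in EVd, so its part of the seed was alike in both lines. miR-125a-5p and miR-351-5p traded places, with miR-125a-5p at 9.44% and 10.4% in RMT1 EV against 40.3% and 24.1% in PC12.

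Tested name by name, most members were called different between these RMT1 and PC12 libraries. Over all 278 members limma called 33.1% higher and 37.1% lower in RMT1 EV, 70.1% in either direction, at a Benjamini-Hochberg adjusted p of 0.05. Of the 263 names without let-7, 83 were higher, 100 lower and 80 not called. edgeR on the recovered counts gave 91 higher and 140 lower, and 78 and 100 names were called by both tools in the same direction. The spread in limma comes from the RMT1 pair alone, with 1 residual degree of freedom. All 35 names with 0 counts in both RMT1 libraries were among the 100 lower names, with no measured spread and a log2 value set to 0. Scaling by library totals moved the median log2 difference of the 263 names from -1.18 to -2.58 and the calls to 55 higher and 141 lower. Of the 83 higher names 12 then changed sign, and 0 of the 100 lower names did. The second table lists 74 of the 83 higher names, and against its PC12 shares both RMT1 libraries were above both PC12 libraries for 64, overlapped with them for 8 and were below both for 2, miR-31a-3p and miR-99a-3p. All 97 lower names listed there lay below both PC12 libraries. Most listed names that were not called also lay wholly above or below both, so a lack of overlap is common here. In the first table RMT1 EV was above both PC12 libraries for 102 of the 263 names and below both for 148. The PC12 libraries are the same in both tables.

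A name was taken as present in a line with at least 10 counts in each of its libraries, and as absent with 0 counts in both. Present in both lines were 105 names, which held 70.9% and 70.4% of RMT1 EV, 85.1% of EVu and 87.8% of EVd. Private to RMT1 EV were 9 names with 0.737% and 0.656% of its counts, and private to PC12 EV were 31 names with 2.95% of EVu and 2.33% of EVd. A further 42 names were present in RMT1 EV and had fewer than 10 counts in at least 1 PC12 library without being absent from both, and held 28.1% and 28.8% of RMT1 EV, most of it miR-31a-5p. Of these 42 names 19 were under 10 counts in both PC12 libraries and 23 reached 10 in 1 of them. The mirror class of 58 names, present in PC12 EV and low by the same rule in RMT1 EV, held 11.5% of EVu and 9.45% of EVd. By these counts, strictly private names were a small part of either cargo, and names at very unequal levels were a larger one. These classes are made from the measured counts and are a description.

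**Figure D2:**
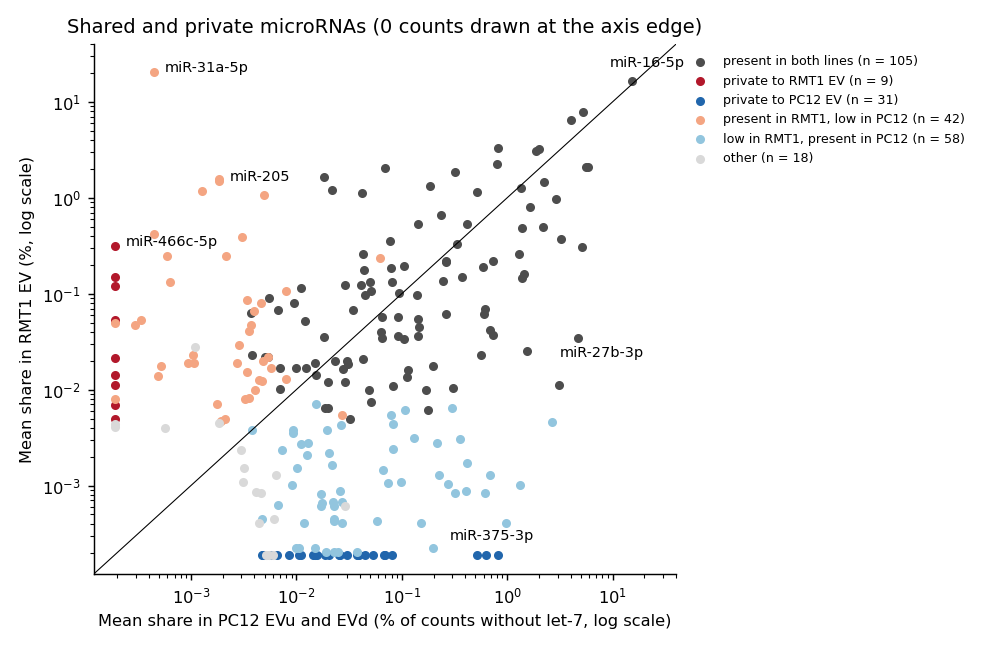
Mean share in RMT1 EV (percent, log axis) against mean share in PC12 EVu and EVd (percent, log axis) for the 263 names, coloured by class, with names at 0 counts drawn at the axis edge and a line of equal share. The 105 shared names run along the line with a wide scatter, miR-16-5p sits near the line, and miR-31a-5p stands at the upper left.

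Being present in both lines did not mean being alike. Of the 105 shared names 33 were higher, 33 lower and 39 not called, with a median log2 difference of -0.08 and a median absolute difference of 1.51. Within 2-fold lay 31 of them, or 29.5%, and 19 differed by at least 10-fold. The shared names with a mean share of at least 0.1% that differed least were miR-30a-3p at -0.05, miR-126a-3p, best known from blood vessel lining, at -0.08, miR-542-5p at -0.10, miR-27a-3p at 0.22, miR-16-5p at 0.31 and miR-99b-5p at -0.46. None of these 6 was called by limma, and miR-99b-5p and miR-16-5p were called by edgeR. That these names differed least rests on the scaling. By library totals the median of the 105 shared names was -1.57, and the 6 names stood between -1.95 and -1.18. Some of the 6 differences are also averages over unlike PC12 libraries. miR-542-5p held 0.0900% and 0.103% of RMT1 EV, between 0.0624% of EVu and 0.215% of EVd. miR-30a-3p and miR-27a-3p also lay between EVu and EVd.

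At the other end of the shared names stood miR-151-5p, made from an intron of the focal adhesion kinase gene Ptk2. It held 1.64% and 1.62% of RMT1 EV against 0.0172% of EVu and 0.0196% of EVd, from 58 and 52 counts, and was higher by 6.63 ± 0.10 (SE, limma adjusted p = 0.00578). miR-674-5p held 1.22% and 1.17% against 0.0214% and 0.0226% (5.93 ± 0.08, adjusted p = 0.00503). miR-320-3p, which is cut without the Drosha step, held 2.04% and 2.02% against 0.0829% and 0.0547% (5.08 ± 0.10, adjusted p = 0.00792). In these 3 names both RMT1 libraries agreed closely and stood far above PC12, and in the second table PC12 had 61 and 56 counts of miR-151-5p and 373 and 191 of miR-320-3p. miR-10a-5p, of a Hox gene cluster, went the other way with 0.0248% and 0.0251% against 1.77% and 1.28% (-5.75 ± 0.12, adjusted p = 0.00817).

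The names private to RMT1 EV were led by miR-466c-5p and miR-466b-5p, which in the mouse come from a large repeat cluster in an intron of Sfmbt2. miR-466c-5p had 819 and 673 counts in RMT1 EV and 0 in both PC12 libraries, and was at least 638-fold higher by shares without let-7, taking 3 counts over PC12 as the floor. miR-466b-5p had 337 and 352 counts and was at least 295-fold higher. Neither is listed in the second table. miR-200a-5p and miR-200b-5p, the lesser arms of epithelial hairpins, had 142 and 110 counts and 52 and 47 counts in RMT1 EV, and were also unlisted there.

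The other private names were less secure. RMT1 EV held 356 and 209 counts of miR-222-5p, where the second table gave PC12 96 and 106 counts in place of 0. miR-3558-5p had 46 and 21 counts, against 21 and 41 for PC12 in the second table, and miR-31a-3p, the lesser arm of the leading hairpin, had 24 and 28 against 0, but 78 and 67 there. No fold is given for these 3. Private by few counts were miR-28-5p, with 20 and 13, and miR-3558-3p, with 13 and 10.

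Of the 42 names present in RMT1 EV and low in PC12 EV, 38 were called higher, beside 33.1% over all 278 members. The class is made from the same counts, so a high number of higher calls follows from its making. The second table gave at least 10 counts in both PC12 libraries for 24 of the 42, so the low class depends on the table for most of its names. Of the 39 listed, 2 had at least 100 counts in 1 library there, miR-486 and miR-221-3p, the latter with 341 in EVd. The median over these names of the higher PC12 count was 27. Of the 38 names called higher 35 are listed, and 31 of these were above both PC12 libraries by the shares of the second table. Over all listed higher names it was 64 of 74. miR-222-3p, miR-122-5p, miR-1306-5p and miR-32-3p overlapped. miR-206-3p, of skeletal muscle, had 2889 and 2639 counts in RMT1 EV, 1 in EVu and 6 in EVd, and 10 and 7 in the second table. For miR-28-3p the RMT1 counts were 1057 and 914, and PC12 had 3, all in EVu. The pooled shares stood at a ratio of 843 (288 to 4093). The second table gave PC12 13 and 5 counts, or 0.00334% and 0.00166%, by which the ratio lies below that interval.

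The names private to PC12 EV were led by miR-152-3p, of the miR-148 family that represses the DNA methyltransferase Dnmt1, with 2683 counts in EVu and 2223 in EVd and 0 in both RMT1 libraries. By shares without let-7 the level in RMT1 EV was lower by a factor of at least 1274, with 3 counts over RMT1 EV as the floor. miR-375-3p, of pancreatic islet and other endocrine cells, had 2899 and 1023 counts, and miR-9a-5p, of neural progenitors, had 2018 and 1124. miR-10a-3p had 304 and 190, miR-338-3p, of myelin-forming cells and neurons, 215 and 199, and miR-344b-3p 174 and 224. For all 6 the RMT1 libraries were at 0 and PC12 was well above counting error. At least 10 counts in both PC12 libraries were also found in the second table for 29 of the 31 private names.

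Among names that are low in RMT1 EV but not absent, miR-218a-5p, a motor neuron microRNA in the mouse, had 17 and 5 counts in RMT1 EV against 11289 in EVu and 5277 in EVd. It was lower by -9.19 ± 0.82 (SE, limma adjusted p = 0.0318). miR-335 had 5 and 0 counts in RMT1 EV against 4768 and 3287, with pooled shares at a ratio of 1255 (538 to 3866) toward PC12. Its RMT1 values spread widely, and limma did not call it (adjusted p = 0.0643) while edgeR did.

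Lists of microRNAs with a known lineage or family showed which groups moved together, to be read against 33.1% higher and 37.1% lower over all 278 members, whose median log2 difference was -1.12. Epithelial microRNAs, the miR-200 family with miR-141, miR-429, miR-203a and miR-205, had 10 names and all 10 were higher, with a median of 7.10. The miR-200 family keeps cells epithelial by repressing Zeb1 and Zeb2. Together they held 4.07% and 3.89% of RMT1 EV, 0.0282% of EVu and 0.0260% of EVd. miR-200c-3p had 3872 and 3480 counts in RMT1 EV against 6 and 5, miR-205 had 3667 and 3347 against 10 and 2, and miR-141-3p 1108 and 729 against 8 and 10. The second table gave 13 and 6, 27 and 17, and 11 and 14 for the same names in PC12. It lists 8 of the 10 names, and 7 of these stayed above both PC12 libraries by its shares, beside 64 of all 74 listed higher names. miR-203a-3p did not, with 0.0497% and 0.0543% of RMT1 EV against 0.0530% of EVu and 0.0542% of EVd there.

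A list of microRNAs often raised in tumours had 12 names, 11 higher and 1 lower, with a median of 3.34. The lower name was miR-146b-5p, with 21 and 25 counts in RMT1 EV against 655 in EVu and 387 in EVd (log2 difference -3.94). All 12 are listed in the second table. Against its shares 9 of the 11 stayed above both PC12 libraries, beside 64 of all 74 listed higher names. miR-222-3p overlapped, and miR-31a-3p turned, with 0.00977% and 0.0126% of RMT1 EV below 0.0201% of EVu and 0.0223% of EVd. The whole list held 23.2% and 23.9% of RMT1 EV, 0.729% of EVu and 0.683% of EVd, and most of the RMT1 share was miR-31a-5p. miR-21-5p, which represses the tumour suppressor Pdcd4, held 2.02% and 1.69% of RMT1 EV against 0.302% and 0.339%, and was higher by 2.69 ± 0.06 (SE, limma adjusted p = 0.00828). miR-210-3p, which is induced by low oxygen, held 0.483% and 0.590% against 0.218% and 0.0645% (2.33 ± 0.27, adjusted p = 0.0420). miR-155-5p, of activated immune cells and several tumours, had 331 and 296 counts against 3 and 1, but 13 and 17 in the second table.

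The 3 names of the miR-34 and miR-449 family, which p53 and ciliated cells switch on, were all higher with a median of 7.98. miR-34a-5p had 2644 and 2331 counts in RMT1 EV against 22 in EVu and 9 in EVd, and miR-449a-5p had 629 and 542 against 4 and 0. The family of miR-28 and miR-151 had 5 names, of which 4 were higher and miR-151-3p was not called. Both names of the muscle list, miR-206-3p and miR-499-5p, were higher. They held 1.20% of each RMT1 library, nearly all of it miR-206-3p, against 0.00803% of EVu and 0.00830% of EVd. miR-1b shares the seed GGAAUGU with miR-206-3p but was not counted in this list. It had 136 counts in RMT1 EV 1, 0 in RMT1 EV 2, 1 in EVu and 5 in EVd, and limma did not call it.

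**Figure D3:**
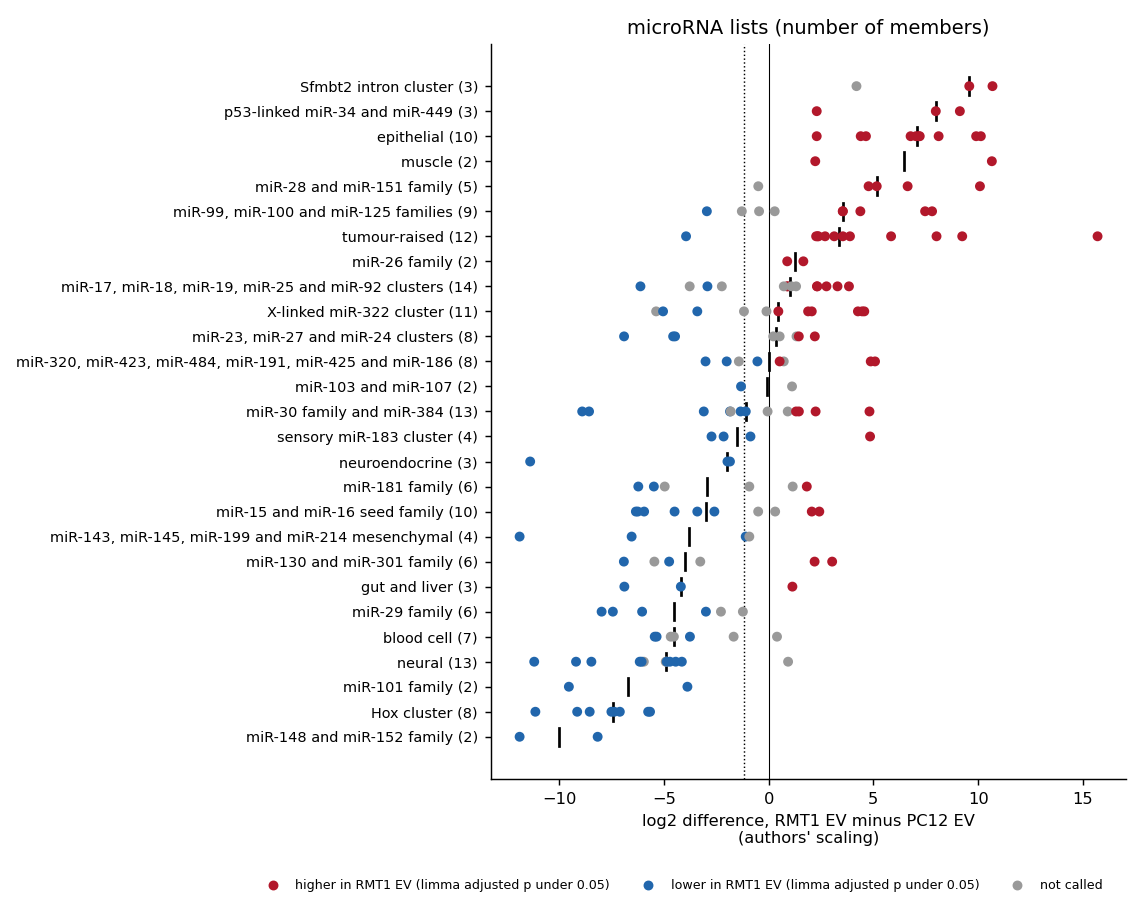
Log2 difference in the authors' scaling, RMT1 EV less the average of both PC12 libraries, for each name of each list, with the number of members in brackets and colours for the limma call. Short black lines are list medians, and the dotted line is the median of the 263 names at -1.18. All epithelial names lie to the right of 0 and all Hox cluster names to the left, while families such as miR-30 lie on both sides.

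Among lists that were lower, the 8 names of the Hox gene clusters were all lower with a median of -7.44. They held 3.53% of EVu and 2.64% of EVd against 0.0265% and 0.0274% of RMT1 EV. Of this list miR-10b-5p had 2 and 0 counts in RMT1 EV, and its PC12 level depends on the table, with 3631 and 2296 counts in the first and 606 and 483 in the second. The neural list had 13 names, 9 lower and 4 not called, with a median of -4.91. Of the 13, 6 were also at 0 in both RMT1 libraries. The list held 5.06% of EVu and 3.31% of EVd against 0.0635% and 0.0583% of RMT1 EV. miR-128-3p, a brain microRNA, had 2862 and 1649 counts in PC12 against 88 and 84 (-4.14 ± 0.15, SE, limma adjusted p = 0.0137). miR-138-5p of this list was not called and went the other way, at 0.93, but stood at -0.56 by library totals.

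The 3 neuroendocrine names were lower, but not equally. miR-7a-5p, of neuroendocrine and sensory cells, held 2.05% of EVu and 2.29% of EVd and still 0.483% and 0.507% of RMT1 EV (-1.97 ± 0.15, adjusted p = 0.0280), whereas miR-375-3p was at 0 there. miR-182, miR-183-5p and miR-96-5p, a cluster of sensory cells, were lower by -0.87, -2.15 and -2.73, while the lesser arm miR-183-3p was higher. miR-101a-3p and miR-101b-3p, and miR-148b-3p and miR-152-3p, were all lower. Of 78 names in the table from the imprinted Dlk1-Dio3 cluster, 0 reached the minimum level in these libraries.

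Families made from several hairpins were mostly mixed. The miR-29 family had 6 names, 4 lower and 2 not called, with 0 higher. The miR-15 and miR-16 family had 10 names, 2 higher, 6 lower and 2 not called, and the miR-181 family 6 names, 1 higher, 2 lower and 3 not called. The miR-99, miR-100 and miR-125 families had 9 names, 5 higher, 1 lower and 3 not called, with the higher ones at low abundance. The miR-30 family with miR-384 had 13 names, 4 higher, 6 lower and 3 not called. Within it miR-30a-5p held 0.958% and 0.972% of RMT1 EV against 3.79% and 1.98% and was lower. miR-30e-5p held 1.25% and 1.03% against 0.615% and 0.429% and was higher, though its sign turned by library totals. The clusters of miR-17, miR-18, miR-19, miR-25 and miR-92 had 14 names, 7 higher, 2 lower and 5 not called. miR-25-3p of these was lower, with 0.128% and 0.163% against 1.99% and 0.756% (-2.92 ± 0.30, adjusted p = 0.0381). It comes from the same hairpin cluster as miR-93-5p, which was higher but not by library totals.

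In the miR-130 and miR-301 family the members split as well. miR-130a-3p held 1.3% and 1.33% of RMT1 EV against 0.222% and 0.146% and was higher by 3.03 ± 0.12 (limma adjusted p = 0.0145). miR-301a-3p, of the same family, held 0.00733% and 0.0135% against 0.355% and 0.252% and was lower by -4.75 ± 0.60 (adjusted p = 0.0466). The X-linked cluster of miR-322, miR-351, miR-503, miR-542 and miR-450 had 11 names, 6 higher, 2 lower and 3 not called. It held 2.33% and 2.27% of RMT1 EV and 2.50% of EVu, but 13% of EVd. miR-351-5p of this cluster, at 1.3% and 1.21% of RMT1 EV, lay between EVu at 0.464% and EVd at 2.24%, and its direction reversed without EVu and by library totals.

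Unlike the muscle list, the lists for blood cells, gut and liver, and mesenchymal cells held small shares of RMT1 EV and larger ones of PC12 EV. The 7 blood cell names summed to 0.00774% and 0.00718% of RMT1 EV, 0.235% of EVu and 0.0260% of EVd, and their part in the differences between lines was not tested. The 3 gut and liver names, miR-192-5p, miR-194-5p and miR-122-5p, summed to 0.0212% and 0.0193% of RMT1 EV, 0.456% of EVu and 0.447% of EVd. Of these miR-122-5p was called higher in RMT1 EV, with a log2 difference of 1.13 (limma adjusted p = 0.0230) that turned to -0.36 by library totals. The mesenchymal list had 4 names and held 0.0888% and 0.0646% of RMT1 EV, 0.977% of EVu and 1.08% of EVd. In PC12 most of it was miR-152-3p, and in RMT1 EV, where that name was at 0, it was miR-22-3p and miR-143-3p.

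Which PC12 library lay closer to RMT1 EV depended on the measure. Weighted by abundance, EVu was closer. The Bray-Curtis dissimilarity, 0 for equal shares and 1 for no overlap, was 0.517 from each RMT1 library to EVu, and 0.587 and 0.580 to EVd. For comparison it was 0.0319 between the RMT1 libraries and 0.210 between EVu and EVd. Counting every name alike, EVd was slightly closer in the authors' scaling, with a median absolute log2 difference of 3.44 from RMT1 EV 1 and 3.55 from RMT1 EV 2, against 3.59 and 3.67 to EVu. Spearman's rho across the 263 names, which are not independent, was 0.169 and 0.181 to EVu and 0.212 and 0.222 to EVd. EVu and EVd have 1 library each, so these distances describe these libraries and have no test.

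The advantage of EVu in shares came from a handful of abundant names. RMT1 EV shared 48.3% of its cargo with EVu and 41.7% with EVd, a gap of 6.67 percentage points. miR-16-5p alone gave 4.54 points of that gap, since EVd held less of it than RMT1 EV, and the gap was 2.12 without it. miR-93-5p gave 2.05 points, miR-30d-5p 1.02 and miR-26b-5p 0.475. miR-351-5p, miR-191a-5p and miR-24-3p counted toward EVd, by -0.790, -0.346 and -0.294. Summing by seed used only the 239 names with a matched sequence, which leave out miR-30d-5p. With miR-16-5p and miR-322-5p then counted together, the dissimilarities were 0.488 and 0.491 to EVu and 0.510 and 0.512 to EVd. The effects of these changes were not told apart.

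**Figure D4:**
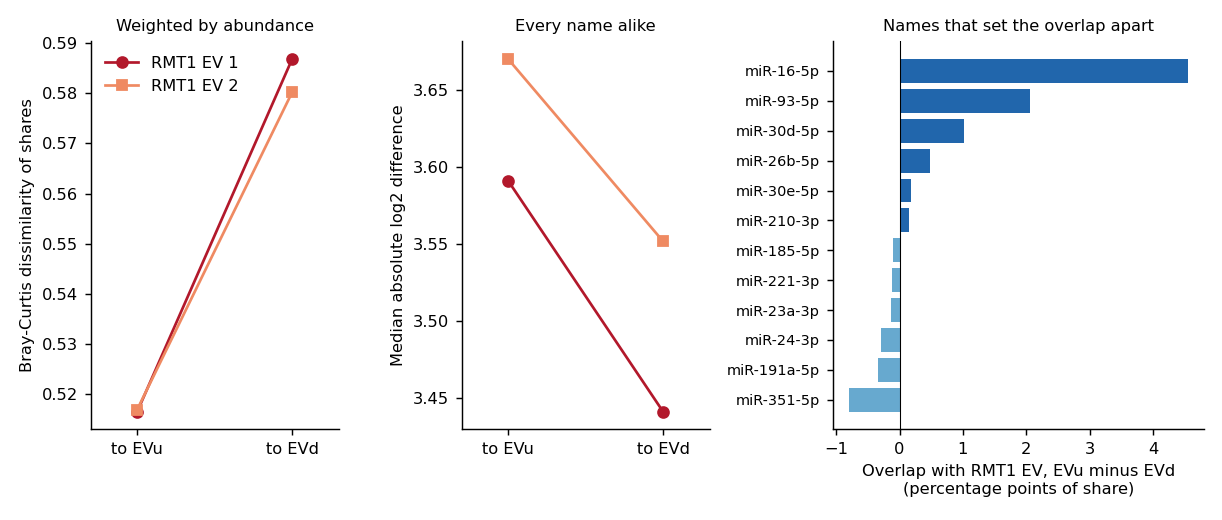
Left and middle panels show the Bray-Curtis dissimilarity and the median absolute log2 difference from each RMT1 library to EVu and to EVd, on axes that do not start at 0. The right panel shows each name's contribution to the overlap with RMT1 EV in EVu minus that in EVd, in percentage points, led by miR-16-5p at 4.54 and opposed by miR-351-5p at -0.790.

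Name by name, RMT1 EV was closer to EVu for 122 names, closer to EVd for 130 and equally far for 11. Among the 146 of them with a mean linear value of at least 100 it was closer to EVu for 73, to EVd for 69 and equally far for 4. RMT1 EV was above both PC12 libraries for 102 names, below both for 148 and between them for 13. Where RMT1 EV lay outside both, the closer library was the higher of the PC12 pair when RMT1 EV was above and the lower one when it was below. Among the names that differed most between EVu and EVd, miR-221-3p, which represses the cell-cycle inhibitor p27, had 552 and 553 counts in RMT1 EV, 9 in EVu and 319 in EVd, so RMT1 EV lay closer to EVd. Leukocyte microRNAs, namely miR-142-3p, miR-142-5p and miR-223-3p, were higher in EVu than in EVd and lay at 0 to 3 counts in RMT1 EV, also closer to EVd. miR-486, of red blood cells, had 11 and 14 counts in RMT1 EV, 181 in EVu and 1 in EVd, and lay closer to EVu on the log2 scale. That placing depends on the table, as the second gave 210 counts in EVu and 11 in EVd. By its shares, 0.0540% and 0.00366%, RMT1 EV at 0.00448% and 0.00628% lay closer to EVd.

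The names that were higher in RMT1 EV tended to have more G and C bases. Over the 239 names with a RefSeq sequence, the median log2 difference rose from -3.77 in 53 names under 40% GC to -2.60 in 36 names of 40% to 45%, -1.09 in 49 names of 45% to 50%, -0.05 in 53 names of 50% to 55% and 0.21 in 48 names from 55%. Higher calls were 10, 13, 14, 21 and 17 and lower calls 28, 18, 23, 14 and 11 in the same bands. Spearman's rho between the difference and GC content was 0.232 across the 239 names, which share libraries and preparation. It was -0.04 for EVd minus EVu, and 0.216 for RMT1 EV 2 minus RMT1 EV 1, so the RMT1 libraries differed from each other along the same axis. The mean GC content per count was 49.0% and 49.3% in RMT1 EV, or 47.5% and 47.8% without miR-31a-5p, against 45.7% and 45.6% in EVu and EVd. How GC content takes part in the differences between lines was not tested.

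The motif GGAG, reported in human T cells as bound by hnRNPA2B1 in microRNAs sorted to vesicles, was searched in the RNA strand of the 239 mature sequences. It was present in 27 of them, or 11.3%, and in 8.09% of all 692 rat mature sequences of RefSeq. Of the 27 names 17 were higher and 5 lower, with a median of 2.31, against 58 higher and 89 lower and a median of -1.44 for the other 212. Among names of at least 50% GC the medians were 1.69 with the motif and -0.01 without. Among names whose PC12 counts lay within 2-fold in both deposited tables, the 13 with the motif had a median of -0.78 and the others -2.91. The motif is itself rich in G, and 21 of its 27 names had at least 50% GC. What part the motif or GC content takes was not tested, and a match is a description of letters and not of binding. The motifs CCCU, GGCU and UGCA were searched the same way and are held by 17, 31 and 37 names, with medians of -2.52, -1.09 and -0.58. The most abundant names with GGAG in RMT1 EV are printed with the motif in capitals.
miR-205: uccuucauuccaccGGAGucugu
miR-351-5p: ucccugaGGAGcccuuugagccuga
miR-674-5p: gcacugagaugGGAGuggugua
miR-185-5p: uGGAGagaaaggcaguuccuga
All 4 were higher in RMT1 EV by limma, from 0.46 for miR-351-5p to 10.13 for miR-205, and the smallest of these reversed without EVu and by library totals.

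**Figure D5:**
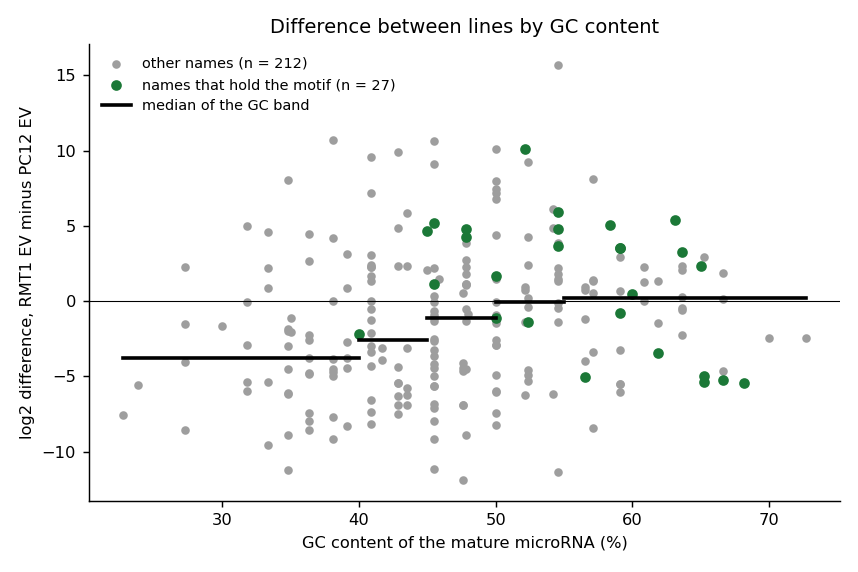
Log2 difference between lines in the authors' scaling against the GC content of the mature sequence (percent) for 239 names, with names that hold GGAG in green and the median of each GC band as a black bar. The medians climb from -3.77 under 40% GC to 0.21 from 55%, with a wide scatter in every band.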

How the data were processed

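Small RNA was profiled in EVs of 2 RMT1 libraries and 1 library each of PC12 EVu and EVd. RNA isolation used QIAzol with a miRNeasy Mini kit, and QIAseq miRNA kits made the libraries, per the labels' protocols. RMT1 vesicles were collected by ultracentrifugation, per the series' design text. The submitters' processing notes name the mouse build mm10, while the names carry the rat prefix. Not given in the sources used here are the aligner, the counting rule, the use of molecular identifiers and how values were scaled. Line and preparation batch cannot be told apart.

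The authors deposited jointly scaled log2 values for all 4 libraries, with 0 where nothing was counted, and raw counts of the PC12 libraries in a second table, per the file headers. Each nonzero linear value was a whole multiple, within 0.1, of its library's smallest step, and dividing by that step gave the recovered counts. Shares were taken of the counts that are not let-7 or miR-98, with exact Clopper-Pearson 95% intervals for single libraries. The log2 values of the 278 members were fitted with limma 3.58.1 with a mean-variance trend (R 4.3.3) in 3 groups, contrasting RMT1 EV with the average of both PC12 libraries, and Benjamini-Hochberg adjustment over the 278. The fit has 1 residual and 0.547 prior degrees of freedom. edgeR 4.0.16 (quasi-likelihood, TMM) and DESeq2 1.42.0 on the recovered counts were alternatives, and all 3 fits were checked on simulated data. The simulated levels were raised above those of the data, so the check does not cover names at or near 0 counts. P-values reflect only the spread of the RMT1 pair, which may be technical, and limma's error leaves out counting error. RMT1 shares were also set against PC12 shares from the second table, a comparison added after seeing the data. Ratios of pooled shares carry conditional binomial 95% intervals, and a fold against a line at 0 uses 3 counts over that line.

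Members and lists were chosen with earlier results of these data known. Named were the 8 leading names of each line, the 6 leading private names of each line, the leading names of each list, the 6 most and least different shared names, and the 5 names most different between EVu and EVd. miR-335, miR-155-5p, miR-185-5p, the less abundant private names of RMT1 EV, the names whose direction depends on the PC12 table and the hairpins with unequal arms were chosen after their values were seen. The authors' own comparison columns were not used.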

Additional observations from a re-analysis of the deposited data

Results flagged for a closer look

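For 3 of the 9 names private to RMT1 EV, the second deposited table of the same PC12 libraries, which the comparison did not use, holds counts above what a count of 0 allows. miR-3558-5p had 21 counts in EVu and 41 in EVd there and 0 in both in the table of all 4 libraries. miR-222-5p had 96 and 106 counts there, and miR-31a-3p had 78 and 67. Of their other arms, miR-31a-5p had 3 and 0 counts in one table and 34 and 42 in the other, low in both beside RMT1 EV. miR-222-3p had 2 and 20 counts, and 7 and 68 in the second table, which does not list miR-3558-3p. By shares without let-7 RMT1 EV was above the second table's PC12 libraries for miR-222-5p, overlapped for miR-3558-5p and was below for miR-31a-3p. The reason for the difference between tables was not tested.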

How the results depend on the processing

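No paired analysis was possible because the lines share fewer than 2 replicate numbers, with 1 library each of EVu and EVd. Of 94 recomputed values 29 moved. The other 65 kept their direction and stayed within 1.5 times for a count of names, or within the replicate SD or counting interval for a single value, so the lower names still ranged from 67 at a mean linear value of 100 to 141 by library totals around 100. The count of names higher in RMT1 EV fell from 83 to 55 by library totals and to 36 among names whose PC12 counts lay within 2-fold in both tables, where only 37 of the 83 were fitted, and all 37 kept their sign. Leaving out 1 library gave 45 to 76 higher names. Without RMT1 EV 1 or 2, the lone RMT1 library was assumed to vary like the PC12 pair, which was then 1 group, and 48 and 45 names were higher. miR-351-5p changed sign without EVu. The PC12 table moved miR-16-5p to 17.3% of EVu and 10.8% of EVd, and miR-322-5p to 1.39% and 7.85%. Names private to RMT1 EV numbered 5 with presence at 30 counts, 17 with absence at 3 counts or fewer, 9 to 15 without 1 library (15 without EVu), and 0 among names alike in both tables, a set that by its making leaves out PC12 names at 0. Names private to PC12 EV numbered 20 and 53 under the first pair of settings, and 33 to 44 without 1 library. The gap in median absolute log2 difference, EVu minus EVd, was 0.13 as the mean of both RMT1 libraries and positive in every setting run, with EVd closer: 0.21 at a mean linear value of 100, 0.0023 in names present in all 4 libraries, 0.047 in names alike in both tables and 0.20 by seed. For single RMT1 libraries it turned 3 times: -0.084 for RMT1 EV 2 by CPM without let-7, -0.057 for RMT1 EV 2 in names alike in both tables and -0.00059 for RMT1 EV 1 in names present in all 4 libraries. The Bray-Curtis gap was -0.0668 and negative for both RMT1 libraries throughout, with EVu closer: -0.0122 with let-7 included, -0.112 in names present in all 4 libraries, -0.0877 in names alike in both tables, -0.0373 without miR-16-5p and miR-31a-5p and -0.0212 by seed. The gap in Spearman's rho was -0.0418 and negative for both throughout, with EVd closer: -0.0370 with let-7, -0.0112 at a mean of 100, -0.0093 in names present in all 4 libraries, -0.0512 in names alike in both tables, -0.0437 without those 2 names and -0.0566 by seed. The restrictions to names alike in both tables, the sums by seed and the run without miR-16-5p and miR-31a-5p were chosen after seeing the data. Sums by seed also left out names without a matched sequence, miR-30d-5p among them. The cause of these shifts was not tested. PC12 EVu and EVd have no replicates, and names under 10 counts in a library are known only roughly.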

Other observations

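Which arm of a hairpin is kept was mostly the same in both lines. Of 60 hairpins with at least 30 counts over both arms in every library, 56 had the same major arm in all 4 libraries. In 3 hairpins the major arm differed in every pair of RMT1 and PC12 libraries. These were found by looking over all 60 and have no test.

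miR-542, of the X-linked cluster, was mostly the 5p arm in RMT1 EV, at 90.2% (95% exact interval 85.8% to 93.6%) and 97.0% (94.0% to 98.8%), and mostly the 3p arm in PC12, where the 5p arm made up 29.96% of EVu (26.6% to 33.5%) and 32.2% of EVd (30.04% to 34.5%). The second table gave 29.9% and 32.1% for the same PC12 libraries. miR-339 went the other way, with the 5p arm at 7.14% and 15.9% of RMT1 EV, from 4 and 7 counts, and at 96.7% and 96.8% of PC12, or 91.9% and 91.5% in the second table. miR-106b had 81.7% (70.7% to 89.9%) and 57.9% (46.0% to 69.1%) of its counts on the 5p arm in RMT1 EV, from 58 and 44 counts, so its major arm in RMT1 EV 2 is not settled at this depth, against 10.8% and 8.33% in PC12, or 14.7% and 15.4% in the second table. RMT1 EV has no second table in which these low counts could be looked up.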
